A study of Mus musculus with 8 samples.

Results

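The genes described here are the 10 that supply peptides to MHC class I molecules: the transactivator Nlrc5, the immunoproteasome subunits Psmb8, Psmb9 and Psmb10, the PA28 activator chains Psme1 and Psme2, the peptide transporter chains Tap1 and Tap2, the loading factor Tapbp and the trimming peptidase Erap1. They were taken by gene symbol from the read count tables, and all 10 were found among the 17364 genes listed. The cells were bone marrow-derived macrophages (BMDMs), that is, macrophages grown in culture from mouse marrow, and all 8 libraries came from cells given 30 ng/ml TNF-α for 24 h. Wild-type cells gave 4 libraries, and cells of Sept2C111A mice, whose label names an alanine in place of a cysteine of the cytoskeletal protein septin 2, gave the other 4. There was no library of untreated cells, so the response to TNF-α itself was not measured. The age and sex of the mice, the number of mice behind each library and the route by which the allele was made were not given in the sources used here. The labels number the libraries without saying that they came from separate mice or cultures, so p-values measure the spread between these libraries, which may be technical.

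Class I molecules show the cell's own peptides to CD8 T cells. Proteasomes cut cytosolic proteins into peptides, TAP carries the peptides into the endoplasmic reticulum, ERAP1 shortens them, and tapasin holds an empty class I molecule beside TAP until a peptide binds. Interferons raise these genes together. Macrophages then build immunoproteasomes, in which the 3 catalytic subunits encoded by Psmb8, Psmb9 and Psmb10 take the places of the constitutive subunits encoded by Psmb5, Psmb6 and Psmb7. NLRC5 enters the nucleus and raises transcription of class I genes and of several of their partners.

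In TNF-treated Sept2C111A macrophages, Tap1 and Psmb9 were higher than in wild-type cells, by 1.44-fold and 1.45-fold, and the other 8 genes did not pass the test. The fold change was above 0 on the log2 scale for 10 of 10 genes, with a median of 0.23 beside 0.01 over all 12462 genes tested. Of all tested genes, 6458 were above 0, and so were 3 of 3 constitutive catalytic subunits. All 10 passed the filter on low counts. The test was edgeR's quasi-likelihood test with Benjamini-Hochberg adjustment over all tested genes, and calls were made at an adjusted p under 0.05. Among all tested genes 6.46% were called, 3.43% higher and 3.03% lower, against 2 higher and 0 lower of the 10. DESeq2 and limma voom with sample weights each called 5 of the 10 higher, adding Psmb8, Psme1 and Nlrc5. These fits called more of all genes too: DESeq2 11.7% in either direction and 5.8% higher, voom with sample weights 10.8% and 5.34%. Without the weights voom called the same 2 genes as edgeR and 6.52% of all genes. At an unadjusted p under 0.05 in edgeR, 5 of the 10 were higher (Tap1, Psmb9, Psmb8, Psme1 and Nlrc5), against 12.3% of all genes higher and 24.8% in either direction. Levels are given as CPM, as mean ± SD over 4 libraries. CPM is a gene's counts per 1000000 counts of the tested genes in its library, after scaling by edgeR's TMM factors.

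Promoter sequences are shown first for the pair that passed the test. Tap1 and Psmb9 are transcribed away from each other and, in RefSeq, share 1 stretch between their start sites. In the GENCODE gene models the pair instead overlaps by 212 bases on opposite strands. RefSeq places the Tap1 gene at chr17:34187556-34197225 on the plus strand and Psmb9 at chr17:34182030-34187330 on the minus strand (mouse build GRCm38, the same coordinates as mm10). The 225 bases between the start sites, chr17:34187331-34187555, are given on the plus strand, so Tap1 begins after the last base and Psmb9 runs leftward from before the first. Capitals mark matches to the motifs searched on both strands: the CCAAT box (CCAAT) and the GC box (GGGCGG).
Tap1 and Psmb9, between the start sites: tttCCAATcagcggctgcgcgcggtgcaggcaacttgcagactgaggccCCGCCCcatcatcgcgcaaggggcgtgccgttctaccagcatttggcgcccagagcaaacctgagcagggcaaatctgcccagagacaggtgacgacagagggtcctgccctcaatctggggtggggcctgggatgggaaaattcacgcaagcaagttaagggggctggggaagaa
Psmb8, on the same chromosome and plus strand, lies 10.6 kb downstream of the Tap1 start. The 250 bases before its start, chr17:34197945-34198194, are shown because this gene, next to the pair, did not pass the test. Capitals mark a match to the GAS motif, the interferon-γ activated site (TTCNNNGAA, the same on both strands).
Psmb8, before the start: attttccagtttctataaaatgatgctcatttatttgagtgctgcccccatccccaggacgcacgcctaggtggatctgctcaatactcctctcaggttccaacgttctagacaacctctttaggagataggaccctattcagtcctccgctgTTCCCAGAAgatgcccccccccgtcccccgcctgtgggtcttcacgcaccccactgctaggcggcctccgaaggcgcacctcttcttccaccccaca
Psme1 and Psme2 encode the 2 chains of 1 activator and are neighbours on chromosome 14, but their levels moved by different amounts. The 250 bases before each start are chr14:55578244-55578493 on the plus strand for Psme1 and chr14:55591102-55591351 on the minus strand for Psme2. Both are written 5′ to 3′ along the gene, with GC boxes in capitals.
Psme1, before the start: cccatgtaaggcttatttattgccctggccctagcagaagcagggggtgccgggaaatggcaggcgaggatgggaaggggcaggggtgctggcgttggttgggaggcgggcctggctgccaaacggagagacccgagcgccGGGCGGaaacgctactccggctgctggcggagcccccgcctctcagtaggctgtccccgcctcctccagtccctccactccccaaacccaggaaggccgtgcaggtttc
Psme2, before the start: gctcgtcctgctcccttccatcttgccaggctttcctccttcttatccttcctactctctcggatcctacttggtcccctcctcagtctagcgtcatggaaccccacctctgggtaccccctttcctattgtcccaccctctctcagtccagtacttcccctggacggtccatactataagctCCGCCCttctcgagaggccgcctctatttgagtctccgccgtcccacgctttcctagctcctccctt

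RefSeq's promoter table for this build held 8 of the 10 genes, with Tap2 and Nlrc5 absent, and gave 250 bases before and 50 after each start. The interferon-stimulated response element, searched as GAAA, any 2 bases and GAAA on both strands, was present in 3.44% of all 32851 promoters in that table. Among the 8 genes it was matched in Erap1 and Psme1. The match (capitals, on the strand opposite the gene) begins 4 bases before the table's start site in Erap1 and 9 bases after it in Psme1. It is shown with 10 bases on each side, at chr13:74639839-74639868 for Erap1 and chr14:55578493-55578522 for Psme1, both on the plus strand. The RefSeq gene span of Erap1 begins further upstream, at chr13:74639573, so the Erap1 match lies inside that span.
Erap1, around the start: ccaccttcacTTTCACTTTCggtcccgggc
Psme1, around the start: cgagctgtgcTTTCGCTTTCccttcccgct
The GAS motif was present in 8.3% of all promoters and was matched in Psmb8 alone of the 8 genes. The κB site, at 8.46% of all promoters, was matched in none of them. GC boxes, at 35.7% of all promoters, were matched in Tap1, Psmb9, Psme1, Psme2, Tapbp and Erap1, and CCAAT, at 37.4%, in Tap1, Psmb9 and Tapbp. These matches describe letters in a 300-base window and do not show that a factor binds there.

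**Figure D1:**
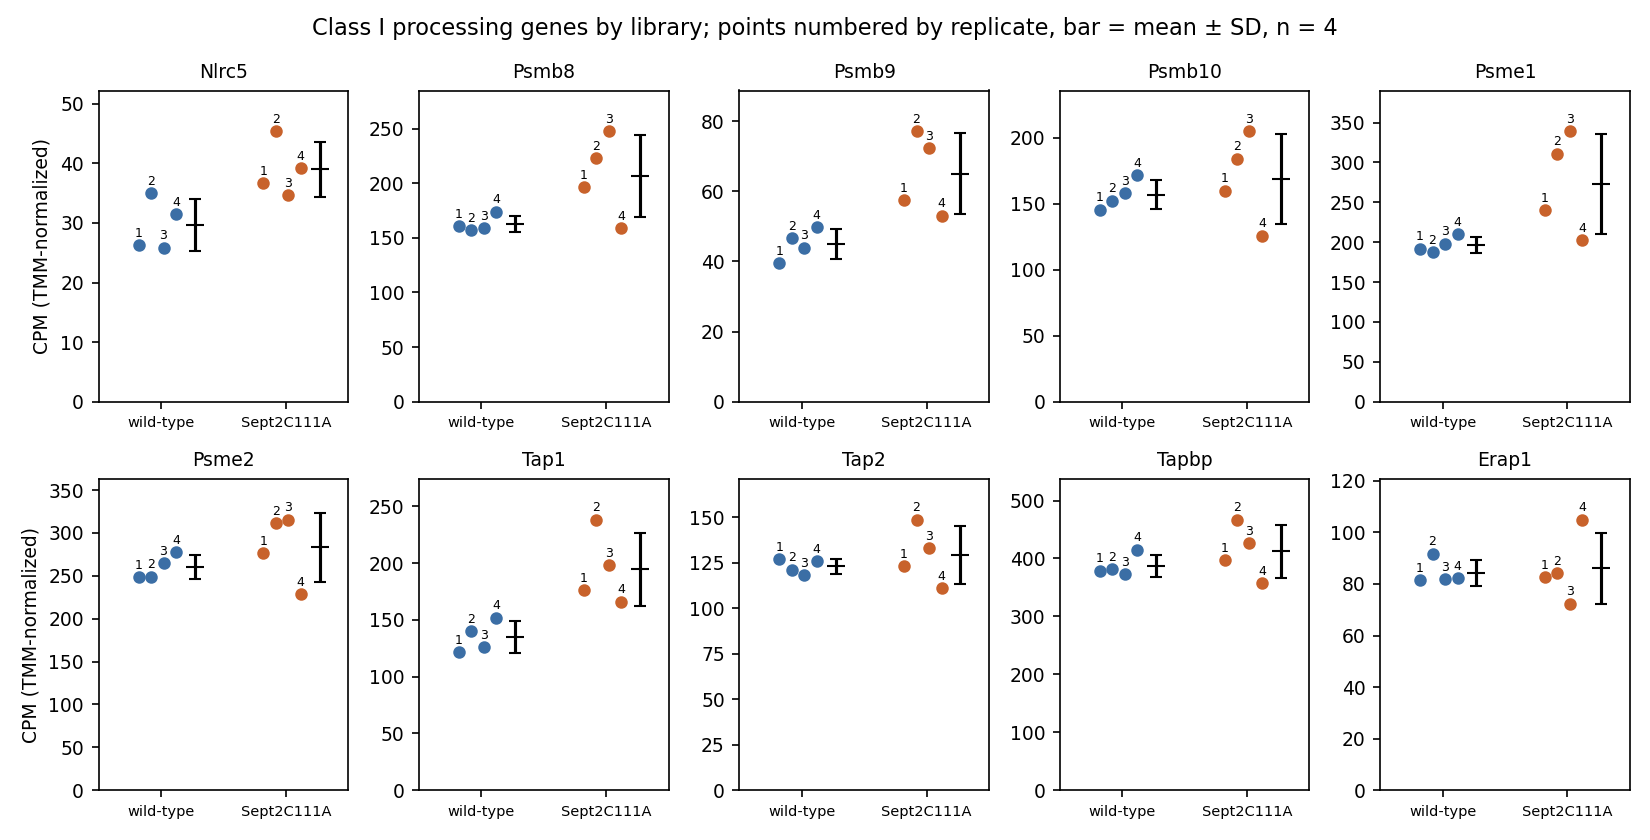
CPM (TMM-normalized, y axis from 0) of the 10 genes in each library, with wild-type in blue and Sept2C111A in orange. Points carry the replicate number and bars show mean ± SD (n = 4). The groups do not overlap for Psmb9 and Tap1, and the Sept2C111A points spread more widely than the wild-type points in all 10 panels. Sept2C111A libraries also differed more from each other than wild-type libraries did across all genes.

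Nlrc5, the transactivator, was measured at 26.2, 35.0, 25.8 and 31.5 CPM in wild-type libraries 1 to 4 and at 36.7, 45.4, 34.7 and 39.2 CPM in Sept2C111A libraries 1 to 4. The groups overlapped only through wild-type library 2 and Sept2C111A library 3. The mean was 29.7 ± 4.42 CPM against 39.0 ± 4.66 CPM, a log2 fold change of 0.39 (SE 0.11, 95% interval 0.14 to 0.65), which missed the threshold with an adjusted p of 0.0647 (edgeR). Its gene spans chr8:94434335-94527272, the longest of the 10. Per kilobase of transcript it had the lowest level, at 3.91 CPM per kb in wild-type and 5.15 in Sept2C111A cells.

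Of the 3 catalytic immunoproteasome subunits, 1 was called, and the 95% intervals of their fold changes overlap. Psmb9, which encodes the subunit that takes the place of Psmb6 and cuts after hydrophobic residues where Psmb6 cuts after acidic ones, stood at 39.5, 46.6, 43.9 and 49.8 CPM in the wild-type libraries and at 57.6, 77.2, 72.3 and 53.0 CPM in the Sept2C111A libraries. Every Sept2C111A library was above every wild-type library. The mean rose from 45.0 ± 4.36 to 65.0 ± 11.6 CPM, a log2 fold change of 0.53 (SE 0.12, 95% interval 0.26 to 0.80, adjusted p = 0.0287, edgeR). Groups that do not overlap were found for 16.9% of all tested genes, 8.47% with Sept2C111A higher, and for 2 of these 10 genes, both with Sept2C111A higher.

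Psmb8, at chr17:34198195-34201454, encodes the chymotrypsin-like subunit that takes the place of Psmb5. Its level was 161, 157, 159 and 174 CPM in the wild-type libraries and 196, 223, 248 and 159 CPM in the Sept2C111A libraries. Sept2C111A libraries 1 to 3 were above the wild-type range and library 4 lay inside it. The means were 163 ± 7.66 and 207 ± 37.9 CPM, with a log2 fold change of 0.35 (95% interval 0.09 to 0.60) and an adjusted p of 0.0963 (edgeR).

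Psmb10, at chr8:105935728-105938392, encodes the trypsin-like subunit that takes the place of Psmb7. It was measured at 146, 152, 158 and 172 CPM in wild-type and at 160.1, 184, 205 and 126 CPM in Sept2C111A libraries. Library 3 of the Sept2C111A group was the highest of all 8 and library 4 the lowest. With means of 157 ± 11.1 and 169 ± 34.1 CPM, the log2 fold change was 0.10 (95% interval -0.18 to 0.38), and no difference was detectable at this spread (adjusted p = 0.656, edgeR).

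The PA28 activator is a ring of the Psme1 and Psme2 products that caps the proteasome core and opens its gate. Psme1 (chr14:55578494-55581527) stood at 192, 187, 198 and 210.05 CPM in the wild-type libraries and at 240.4, 311, 339 and 203 CPM in the Sept2C111A libraries. Again libraries 1 to 3 were above the wild-type range and library 4 was within it. The mean was 197 ± 9.91 CPM against 273 ± 62.9 CPM, with a log2 fold change of 0.47 (95% interval 0.17 to 0.78) and an adjusted p of 0.0657 (edgeR). Psme2 (chr14:55587440-55591101) was measured at 248, 249.0, 265 and 278 CPM and at 277, 312, 316 and 229 CPM, respectively. Its groups overlapped, with means of 259.95 ± 14 and 283 ± 40.2 CPM and a log2 fold change of 0.12 (95% interval -0.09 to 0.34, adjusted p = 0.467, edgeR). Psme2b, a near copy of Psme2 that could share reads with it, had means of 5.81 (wild-type) and 4.55 CPM (Sept2C111A).

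TAP is a heterodimer of the Tap1 and Tap2 products. Tap1 was measured at 122, 140.1, 126 and 152 CPM in the wild-type libraries and at 176, 238, 198 and 166 CPM in the Sept2C111A libraries. All 4 Sept2C111A values were above the highest wild-type value. The mean rose from 135 ± 13.7 to 195 ± 32.1 CPM, a log2 fold change of 0.53 (SE 0.11, 95% interval 0.28 to 0.78, adjusted p = 0.0223, edgeR). Tap2 (chr17:34204479-34216321) stood at 127, 121, 118 and 126 CPM in wild-type and at 123, 149, 133 and 111.1 CPM in Sept2C111A libraries. Here the Sept2C111A libraries lay on both sides of the wild-type range. The means of 123 ± 4.03 and 129 ± 15.9 CPM gave a log2 fold change of 0.07 (95% interval -0.12 to 0.25, adjusted p = 0.660, edgeR).

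The calls of Tap1 and Psmb9 depended on which libraries were kept. Both were lost when wild-type library 1, wild-type library 3 or Sept2C111A library 2 was left out, with adjusted p of 0.0857, 0.0904 and 0.0521 for Tap1 and 0.0982, 0.101 and 0.0862 for Psmb9 (edgeR). Those fits also called fewer of all tested genes, 2.24%, 2.12% and 2.86% respectively, against 6.46% with all libraries. Psmb9 also lost its call without wild-type library 2 (adjusted p = 0.0595, edgeR), where 3.77% of all genes were called. The fold change stayed between 0.42 and 0.60 on the log2 scale for Tap1 and between 0.44 and 0.62 for Psmb9 over the 8 fits that each left out 1 library. In the GENCODE models the pair also shares 212 exonic bases on opposite strands. The strand setting of the counting was not given in the sources used here, so reads from those bases cannot be told apart between Tap1 and Psmb9.

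Tapbp, at chr17:33919478-33929290, encodes tapasin. It was measured at 379, 381, 373 and 415 CPM in wild-type and at 397, 467, 426 and 358 CPM in Sept2C111A libraries. The lowest and the 2 highest values were all from Sept2C111A cells. The means were 387 ± 19 and 412 ± 46.2 CPM, and the log2 fold change was 0.09 (95% interval -0.09 to 0.27, adjusted p = 0.532, edgeR).

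Erap1 (chr13:74639573-74693205) encodes the aminopeptidase that trims peptides in the endoplasmic reticulum. Its wild-type values were 81.5, 91.7, 81.8 and 82.2 CPM, of which library 2 stood apart from 3 nearly equal ones. In Sept2C111A cells it was at 82.5, 84.3, 72.4 and 105 CPM. The order of the libraries differed from the other genes, since library 4 was the highest. Library 3 was the lowest, as it was for Nlrc5. The means were 84.3 ± 4.97 and 86.1 ± 13.7 CPM, with a log2 fold change of 0.03 (95% interval -0.19 to 0.25, adjusted p = 0.888, edgeR). Cast, which overlaps Erap1 on the other strand, was not called either (log2 fold change 0.04, adjusted p = 0.712, edgeR).

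**Figure D2:**
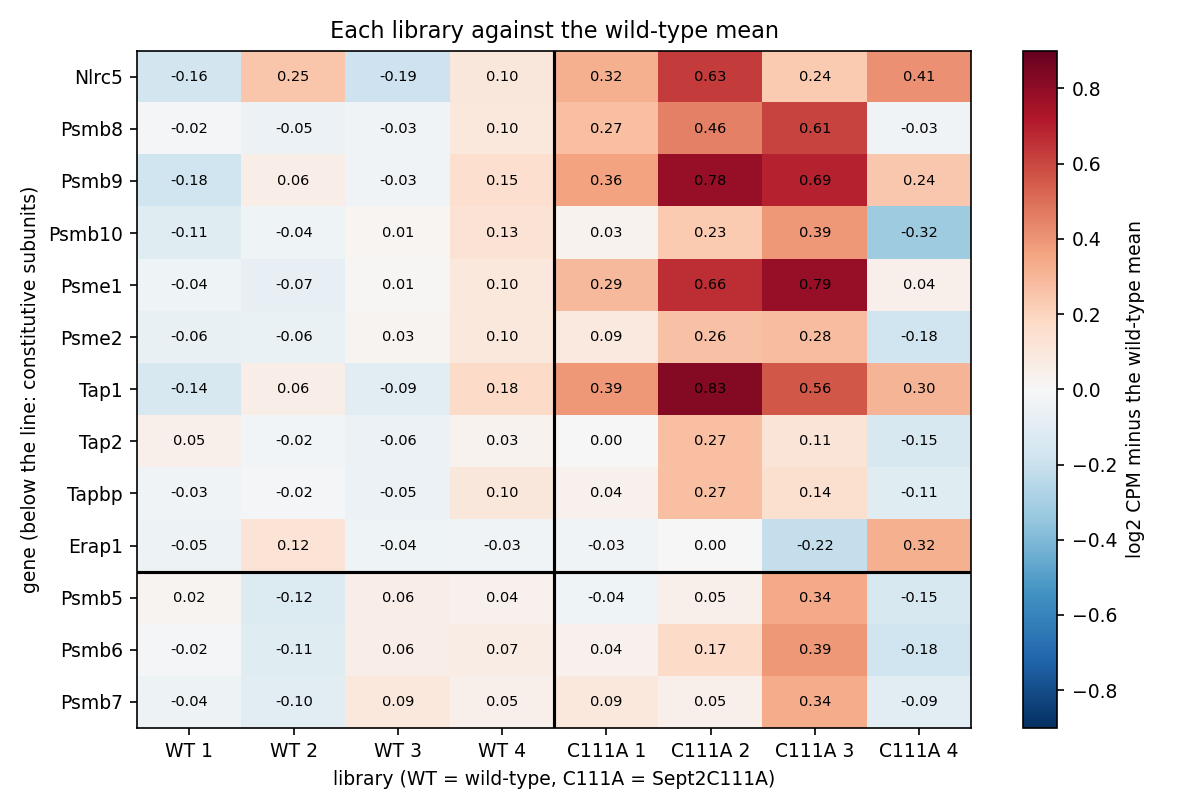
Log2 CPM of each gene minus its wild-type mean, by library (left 4 columns wild-type, right 4 columns Sept2C111A), for the 10 genes and, below the line, the 3 constitutive catalytic subunits. Sept2C111A libraries 2 and 3 hold the highest values for most genes and library 4 is below the wild-type mean for Psmb8, Psmb10, Psme2, Tap2, Tapbp, Psmb5, Psmb6 and Psmb7.

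The 4 Sept2C111A libraries were not alike. Library 2 was the highest of its group for 5 of the 10 genes (Tap1, Tap2, Tapbp, Psmb9 and Nlrc5), library 3 for 4 (Psmb8, Psmb10, Psme1 and Psme2) and library 4 for Erap1. Library 4 was the lowest of its group for 8 of the 10. Over all tested genes library 3 was the highest for 34.0% and library 4 the lowest for 32.4%. The SD was larger in Sept2C111A than in wild-type cells for 10 of 10 genes, though for Nlrc5 by little. How many of all tested genes share this was not counted. Over all genes with enough counts, Sept2C111A pairs of libraries also differed more (mean chi-square per gene 16.13 to 74.13) than wild-type pairs (4.257 to 11.08). Libraries 2 and 3 also stood apart across all genes: the first principal component, with 48.5% of the variance, placed them at 23.2 and 31.4, Sept2C111A libraries 1 and 4 at 2.12 and -2.84, and the wild-type libraries between -16.4 and -8.74. Without libraries 2 and 3, the log2 fold change was 0.34 for Tap1 (adjusted p = 0.0571) and 0.30 for Psmb9 (adjusted p = 0.0981), so that 0 of the 10 genes were called by edgeR. That fit called 3.86% of all tested genes, against 6.46% with all libraries.

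Among the 10 genes, the level per kilobase of transcript ran from Psme2 down to Nlrc5. In wild-type cells Psme2 was at 270.2 CPM per kb, Psme1 at 177, Tapbp at 133.5, Psmb10 at 119.8, Psmb8 at 99.9, Tap1 at 45.7, Tap2 at 35.8, Psmb9 at 33.3, Erap1 at 14.9 and Nlrc5 at 3.91. The libraries of neighbours in this order did not overlap except for Tapbp with Psmb10 and Tap2 with Psmb9. In Sept2C111A cells Psmb9, at 48.1 CPM per kb, came before Tap2, at 37.5. There Psme2 with Psme1, Tapbp with Psmb10, Psmb10 with Psmb8, and Psmb9 with Tap2 overlapped, as did Tap1, at 65.9, with Psmb9. One transcript length per gene was used, so these levels shift if another isoform is the main one.

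**Figure D3:**
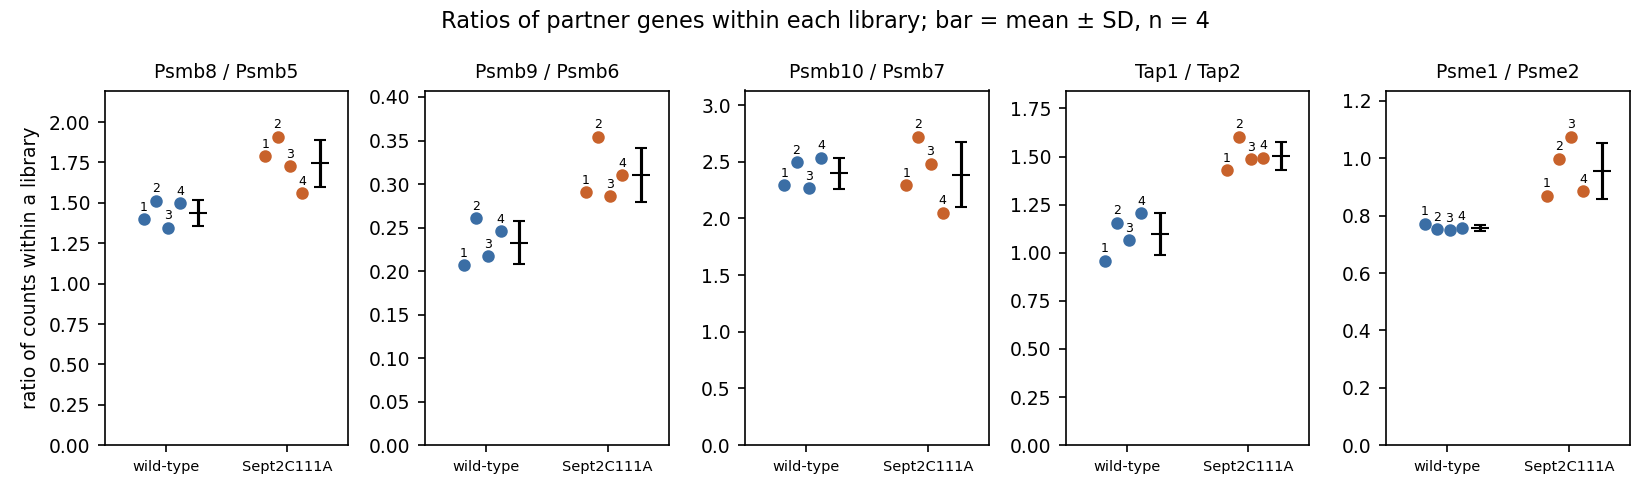
Ratio of the counts of partner genes within each library (y axis from 0), wild-type in blue and Sept2C111A in orange, points numbered by replicate, bars mean ± SD (n = 4). The groups are apart with Sept2C111A higher for Psmb8 to Psmb5, Psmb9 to Psmb6, Tap1 to Tap2 and Psme1 to Psme2, and overlap for Psmb10 to Psmb7.

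A ratio of 2 genes within 1 library does not depend on library scaling, and for these partners it sets a gene against the one it replaces or binds. Psmb9 against its constitutive counterpart Psmb6 was 0.207, 0.261, 0.217 and 0.246 in wild-type and 0.290, 0.354, 0.286 and 0.311 in Sept2C111A libraries. The 2 groups did not overlap, and the ratio was 1.33-fold higher, a difference of 0.41 on the log2 scale. Psmb8 against Psmb5 was 1.4, 1.51, 1.35 and 1.50 in wild-type and 1.79, 1.91, 1.73 and 1.56 in Sept2C111A libraries, 1.21-fold higher (0.28 on the log2 scale), again without overlap. Psmb10 against Psmb7 went from 2.29, 2.49, 2.27 and 2.54 to 2.29, 2.72, 2.48 and 2.05. That ratio overlapped between the groups (0.992-fold, a log2 difference of -0.01, p = 0.83 in the exact permutation test). So 2 of the 3 immunosubunits were higher against the subunit they replace, and the difference for the remaining one was smaller than its spread.

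Tap1 against Tap2 was 0.959, 1.16, 1.07 and 1.21 in wild-type and 1.43, 1.6, 1.49 and 1.49 in Sept2C111A libraries. The Sept2C111A ratios were all above the wild-type ones, by 1.37-fold on average (0.46 on the log2 scale). Psme1 against Psme2 was 0.772, 0.752, 0.749 and 0.757 in wild-type libraries, the narrowest group of all (SD 0.02 on the log2 scale). In Sept2C111A libraries it was 0.870, 0.999, 1.07 and 0.885, which is 1.26-fold higher (0.33 on the log2 scale). Each of the 4 ratios without overlap had p = 0.0286 in the two-sided exact permutation test, the smallest that 4 against 4 libraries can give, and 0.0357 after Benjamini-Hochberg adjustment over the 5 ratios. The ratio of every tested gene to the same partner was apart and higher for 5.45% of genes with Psmb5, 3.84% with Psmb6, 3.07% with Psmb7, 4.75% with Tap2 and 3.32% with Psme2. In library 4 of the Sept2C111A group, the levels of Psmb8 and Psme1 lay inside the wild-type range. The ratios of Psmb8 to Psmb5 and of Psme1 to Psme2 were above every wild-type ratio there. The partners were low in that library: Psmb5 was at 102 CPM, below the lowest wild-type value of 104. Psme2 was at 229 CPM, below the lowest wild-type value of 248.

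**Figure D4:**
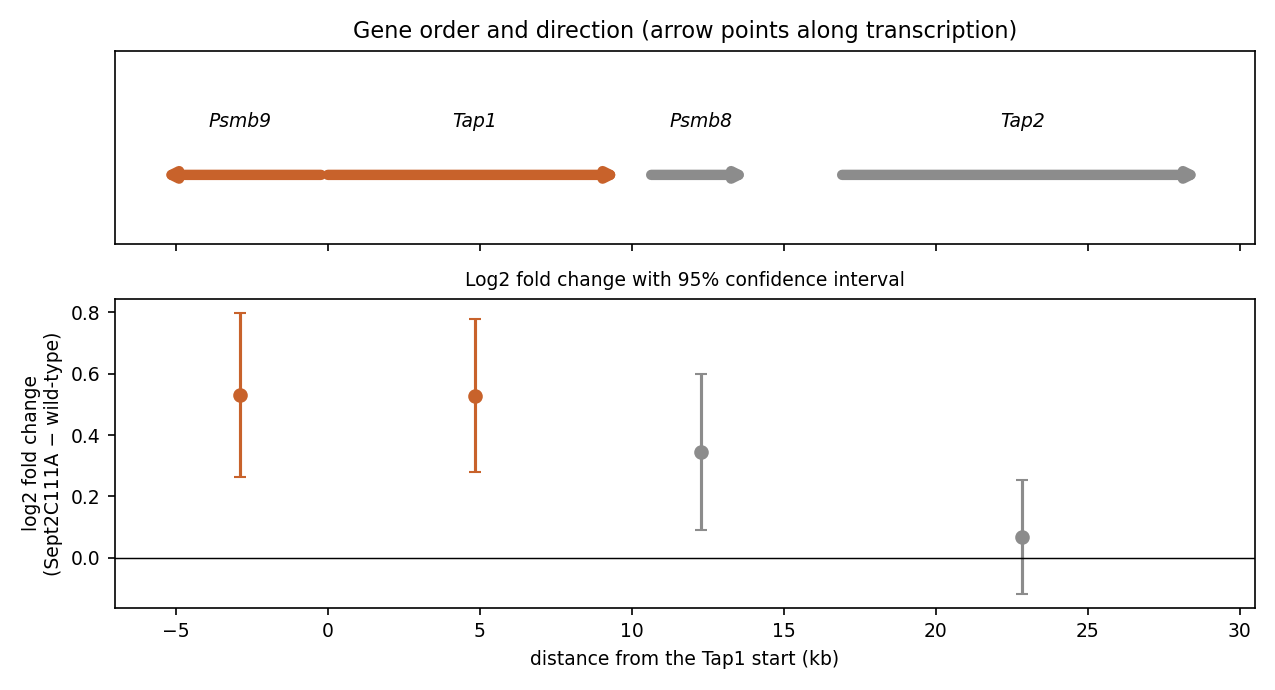
Top, order and direction of the 4 genes of the chromosome 17 block, in kb from the Tap1 start; bottom, log2 fold change (Sept2C111A minus wild-type) with its 95% confidence interval, placed at the middle of each gene. Psmb9 and Tap1 (orange, adjusted p under 0.05) are both at 0.53, and the genes further along, Psmb8 at 0.35 and Tap2 at 0.07 (grey), were not called.

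Psmb9, Tap1, Psmb8 and Tap2 form 1 block inside the MHC class II region of chromosome 17. From the Tap1 start, Psmb9 covers -5.53 to -0.226 kb, Psmb8 10.6 to 13.9 kb and Tap2 16.9 to 28.8 kb. The log2 fold change was 0.53 for each of the divergent pair and lower for each gene further along. The ratio of Tap1 to Tap2, above, is the test of the difference between the first and the last of the 3 genes on the plus strand. Of the 5 annotated genes on either side of the block, 7 were tested (Brd2, H2-DMa, H2-DMb2, H2-DMb1, H2-Ab1, H2-Aa and H2-Eb1). Of these, 1 was called: H2-DMb1, a chain of the class II peptide exchange factor, which rose from 28.6 ± 1.76 to 38.6 ± 5.32 CPM (log2 fold change 0.43, adjusted p = 0.0282, edgeR). That call was lost without any 1 of the wild-type libraries or Sept2C111A library 2, with adjusted p from 0.0510 to 0.106, and without libraries 2 and 3 (log2 fold change 0.26, adjusted p = 0.0994).

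**Figure D5:**
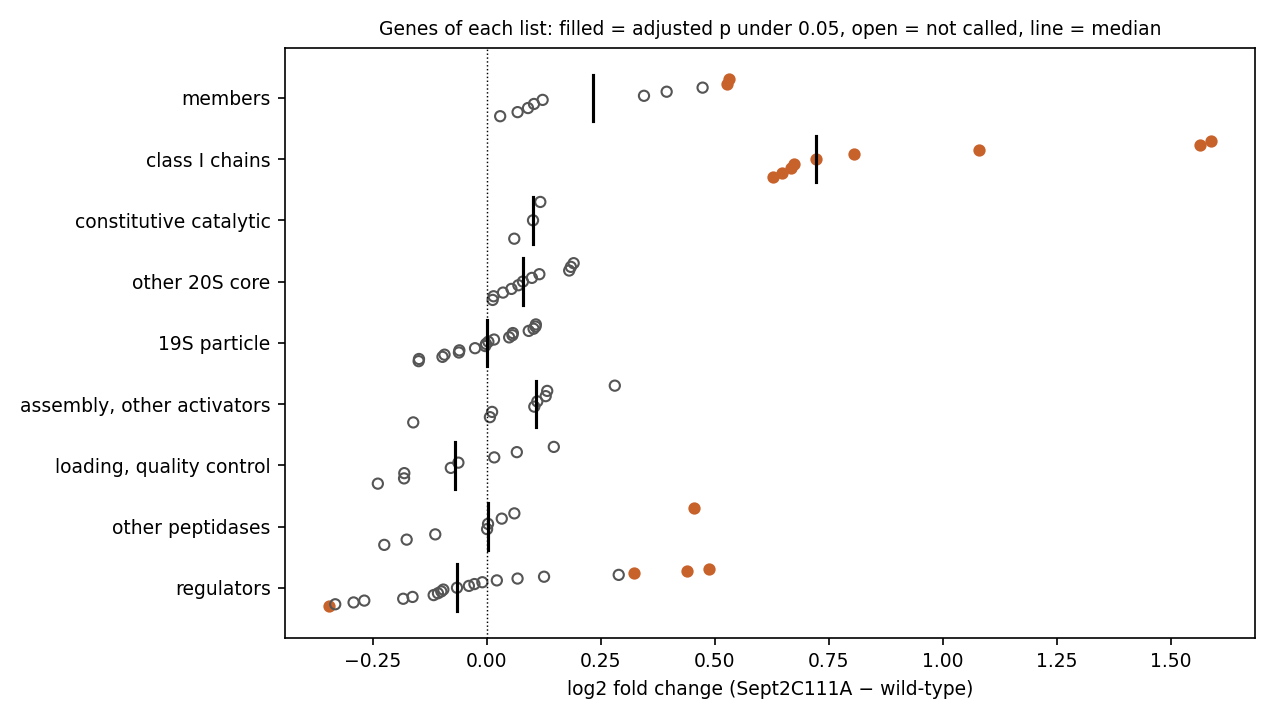
Log2 fold change (Sept2C111A minus wild-type, x axis) of every tested gene in each list; filled points have an adjusted p under 0.05, open points do not, and the line is the median of the list. The class I chains are all filled and lie to the right of the 10 processing genes. The other proteasome lists have medians from 0.00 (19S particle) to 0.11 (assembly, other activators) and no filled point.

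The rest of the proteasome was tested as 40 genes in 4 lists, and edgeR called 0 of them, with 4 at an unadjusted p under 0.05, a smaller share than among all genes. DESeq2 called 1 (Psme3) and limma voom with sample weights 0. The median log2 fold change over the 40 was 0.06, with a range from -0.16 to 0.28, and 30 of 40 were above 0. The constitutive catalytic subunits Psmb5, Psmb6 and Psmb7 were at 113 ± 6.42, 194 ± 11.1 and 65.5 ± 3.98 CPM in wild-type cells and at 118 ± 17.9, 210.0 ± 34.6 and 70.4 ± 8.92 CPM in Sept2C111A cells, with log2 fold changes of 0.06, 0.12 and 0.10. The other 11 subunits of the 20S core, the barrel that holds the catalytic sites, had a median of 0.08, and 11 of 11 were above 0. Psma6, the most abundant of them in wild-type cells, was at 139 ± 8.64 and 140.0 ± 19.5 CPM.

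The 18 genes of the 19S particle, which unfolds ubiquitin-tagged proteins, had a median of 0.00 and were led in abundance by Psmd8 (365 ± 13.3 and 364 ± 22.7 CPM). The 8 assembly factors and other activators had a median of 0.11. Their most abundant gene in wild-type cells, Psme3, encodes the activator PA28γ of the nucleus, and had means of 118 ± 2.96 and 106 ± 5.22 CPM (log2 fold change -0.16, adjusted p = 0.119, edgeR). Sept2C111A library 3 was the highest of its group for 34 of the 40 genes (85%, against 34.0% of all tested genes), and library 4 the lowest for 33 of 40 (82.5%, against 32.4%). The spread of Psmb8, Psmb10, Psme1 and Psme2 between libraries 3 and 4 therefore ran the same way as that of the constitutive proteasome genes.

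Of 8 genes of the peptide loading complex and its quality control, 0 were called by edgeR and by voom (median log2 fold change -0.07), with 2 at an unadjusted p under 0.05. DESeq2 called 2 lower (Calr and Canx) and voom with sample weights 1 (Calr). EdgeR also called Calr lower without Sept2C111A library 3 and without libraries 2 and 3, and Uggt1, which checks the folding of glycoproteins, without library 4. The most abundant, the chaperone Calr, had means of 931 ± 9.53 and 789 ± 59.5 CPM (log2 fold change -0.24, adjusted p = 0.0622, edgeR). Of 8 other peptidases that destroy or trim peptides, 1 was called by edgeR. Ide, which encodes insulin-degrading enzyme, rose from 54.5 ± 2.92 to 74.6 ± 5.24 CPM (log2 fold change 0.45, adjusted p = 0.00437, edgeR). Npepps, of the same list, was not called by edgeR (log2 fold change -0.22, adjusted p = 0.0847), though its groups did not overlap. It was called lower by DESeq2 and by edgeR without Sept2C111A library 4. The median of that list was 0.00.

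The molecules that receive the peptides moved further. The 9 class I chains tested were all called higher, with a median log2 fold change of 0.72 and a range of 0.63 to 1.59, so that each lay above the highest of the 10 processing genes, at 0.53. The difference between the lists was not tested. Without Sept2C111A libraries 2 and 3, 9 of 9 chains were called, against 0 of the 10 processing genes. B2m, the light chain shared by all class I molecules, went from 3074 ± 80.4 to 4817 ± 355 CPM (log2 fold change 0.65, adjusted p = 0.000780, edgeR). H2-Q7 and H2-T23, non-classical heavy chains, were higher by 1.56 and 1.08 on the log2 scale. H2 genes are near copies of each other, and how the counting split shared reads among them is uncertain.

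Of 21 regulators of class I genes, such as interferon regulatory factors and subunits of NF-κB, 3 were called higher and 1 lower, with a median log2 fold change of -0.06. Irf8, a myeloid factor, rose from 116 ± 3.5 to 157 ± 14.9 CPM (log2 fold change 0.44, adjusted p = 0.00701, edgeR). Irf9, a subunit of the factor that interferon receptors activate, rose from 54.5 ± 4.6 to 68.1 ± 5.89 CPM (adjusted p = 0.0429, edgeR). Irf1, which drives Tap1 and Psmb9 in many cell types, fell from 349.7 ± 16.8 to 275 ± 31.9 CPM (log2 fold change -0.34, adjusted p = 0.0365, edgeR). It went opposite to Tap1 and Psmb9 in these libraries. The Irf1 call was lost without any 1 of the wild-type libraries or Sept2C111A library 1 (adjusted p from 0.0551 to 0.102). That of Irf9 was lost without wild-type library 1, 3 or 4, Sept2C111A library 2, or libraries 2 and 3 (adjusted p from 0.114 to 0.140). Irf8 was called in each of these fits.

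After centring within each genotype, the mean log2 CPM of the 10 genes was followed most closely over the 8 libraries by Dnaja3 (r = 0.988), Ltc4s (0.988), Sp140 (0.987), Ermard (0.986) and Edem1 (0.978), out of 8298 genes whose mean reached 10 CPM. These are the highest of many correlations over 8 libraries of similar depth, 2 of which stand apart, and are given as a description only.

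The libraries held 19543958 to 21288493 counts. Septin2 itself had means of 226 ± 7.43 and 188 ± 18.7 CPM (adjusted p = 0.0627, edgeR), which does not check the labels, since a changed residue leaves the count in place. The 12 macrophage markers, Lyz2, C1qb and Csf1r among them, summed to 33004 to 34283 CPM in wild-type and 30850 to 35157 CPM in Sept2C111A libraries. The sums hold opposite moves, with 7 log2 fold changes above 0 and 5 below. Mean Lyz2 went from 14365 to 12366 CPM and mean C1qb from 4538 to 5541 CPM. EdgeR and voom called 0 of the 12 and DESeq2 3 (Lyz2, C1qc and Cd68). At an unadjusted p under 0.05 in edgeR there were 8 of the 12, a larger share than the 24.8% of all tested genes. Voom with sample weights called 2 (C1qc and Mertk), and edgeR 4 without Sept2C111A library 4, 1 without library 3 and 3 without libraries 2 and 3. Of 14 stromal markers 13 were tested and edgeR called 3 lower (Loxl1, Postn and Col1a1), DESeq2 7, voom 4 and voom with sample weights 9. Leaving out 1 library moved edgeR's count from 0 (wild-type library 1 or 3) to 11 (Sept2C111A library 4): it was 1 without wild-type library 4 or Sept2C111A library 2, 2 without Sept2C111A library 3 and 6 without library 1. The lowest Sept2C111A library was library 2 for 5 of the 13 tested stromal markers and library 3 for 8. Library 2 or 3 was also the highest for most processing genes. The share of all genes with library 2 or 3 lowest was not counted. The stromal markers summed to 6250 to 7858 CPM in wild-type and 4384 to 6270 CPM in Sept2C111A libraries. Fewer stromal cells and less RNA per cell cannot be told apart in bulk samples, and the part of this difference in the results was not tested. Markers of T and NK cells (5 of 12 found in the files) summed to 0.700 to 1.43 and 0.901 to 1.28 CPM, those of B cells to 6.73 to 8.86 and 6.81 to 11.5 CPM (nearly all Cd79b), those of neutrophils to 2.05 to 3.39 and 2.18 to 7.62 CPM, and those of dendritic cells to 7.88 to 15.1 and 5.39 to 9.98 CPM, with 0 genes of these lists called by edgeR, DESeq2 or voom.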

How the data were processed

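RNA-seq of 8 BMDM libraries was analysed, 4 wild-type and 4 Sept2C111A, grouped by sample title. The values are expected counts per gene that the authors deposited in 1 table per library. Per the submitters' processing notes, the tools were Bowtie2, RSEM 1.3.1 and DESeq2 1.4.5 and the build was mm10; the annotation and strand setting were not given in the sources used here. RSEM splits reads that fit several genes by estimate, which bears on Psme2 and the H2 genes.

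The 10 genes and all lists were chosen with earlier results of these data known. Counts were rounded, filtered with filterByExpr (minimum count 10), scaled by TMM and tested with edgeR 4.0.16 (R 4.3.3) over 12462 genes, group as the only term. The libraries held 19543958 to 21288493 counts, of which 19536185 to 21279923 fell in tested genes. CPM values use the totals of tested genes scaled by TMM, and a count of 3 corresponds to 0.140 to 0.159 CPM. Ratios used counts plus 0.5 on the log2 scale and an exact permutation test. Lists held 156 entries in 15 lists, of which 148 were found. All 10 genes were named whatever their values; of each other list the called genes, up to 3 by adjusted p, or else the most abundant gene in wild-type cells, and all constitutive catalytic subunits. The value of 1 further called gene is not reported here. Scripts were tested on simulated data. Alternatives were other scalings, no filter, DESeq2 1.42.0, limma 3.58.1 (voom), a replicate block, leaving out each library and, chosen after seeing the data, leaving out Sept2C111A libraries 2 and 3. No 2 libraries agreed within sampling noise.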

Additional observations from a re-analysis of the deposited data

Results flagged for a closer look

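Among 30 groups of 4 values examined, chance flags about 5%, and 1 was flagged. The Erap1 level in wild-type library 2, 91.7 CPM, was far from the other wild-type libraries, whose nearest was 82.2 CPM: the gap was 0.93 of the range of the group, above Dixon's 95% critical value for 4 values.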

How the results depend on the processing

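Of the 10 genes, 2 were called higher and 0 lower with DESeq2 size factors, upper-quartile scaling, no filter and voom, as in the reported fit. DESeq2 and voom with sample weights each called 5 (Tap1, Psmb8, Psmb9, Psme1 and Nlrc5), and 0 were called without Sept2C111A libraries 2 and 3. Leaving out 1 library gave 0 to 5, the 5 without Sept2C111A library 4, where 16.5% of all genes were called. The other proteasome genes gave 1 call with DESeq2 and 0 to 2 when 1 library was left out (Psmb3 and Psmg4 without Sept2C111A library 4). The labels do not say whether the replicate numbers pair the libraries. After centring within each genotype, same-numbered libraries correlated at 0.23, 0.05, 0.11 and -0.53, which cannot settle it. With a replicate block 3 of the 10 genes were called (Nlrc5 with an adjusted p of 0.0242, edgeR) and 494 genes in all, against 805. In the replicate block the ratio differences are 0.28, 0.41, 0.46 and 0.33 by construction, the same as without it, and the sign-flip test cannot go below 0.125. Leaving out 1 library, they ranged from 0.23 to 0.33 (Psmb8 to Psmb5), 0.35 to 0.47 (Psmb9 to Psmb6), 0.40 to 0.51 (Tap1 to Tap2), 0.27 to 0.38 (Psme1 to Psme2) and -0.0776 to 0.0583 (Psmb10 to Psmb7), where p cannot go below 0.0571. Without Sept2C111A libraries 2 and 3 the first 4 were 0.22, 0.37, 0.42 and 0.21 (p = 0.133, the smallest an exact test of 4 against 2 allows). Log2 fold changes that changed sign were, leaving out 1 library, Tap2 (-0.0019 to 0.14), Psmb10 (-0.0015 to 0.23) and Erap1 (-0.075 to 0.11), and without both libraries Tap2 (-0.0704), Tapbp (-0.035), Psmb10 (-0.1351) and Psme2 (-0.0403); the cause was not tested. Of 160 fits of single genes, 132 kept direction and side of the threshold.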
